A study of Mus musculus with 11 samples.

Results

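The 32 genes described here mark fibroblasts, smooth muscle cells and pericytes, the supporting (stromal) cells of the lung. They were taken as a fixed list of gene symbols, 32 of the 24515 genes in the deposited table, and the counts of all transcripts of a symbol were summed. By what they are best known for, 16 were grouped as fibroblast genes, 10 as smooth muscle genes and 6 as pericyte genes. Several of them are used by more than one of these cells.

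All tissue came from 5 mice that lack Gprc5a (Gprc5a-/-), a receptor gene of the lung epithelium whose loss predisposes mice to lung tumors. Every mouse, including the source of each normal lung, had received injections of the tobacco nitrosamine NNK (50 mg per kg, 3 times per week for 8 weeks). The tumors were 3 tagged ADC, from mice m335, m372 and m378, and 3 tagged ADN, from mice m335, m368 and m350; the labels do not spell out these tags. The 5 normal samples were lung tissue next to the tumors of mice m335, m368, m350, m372 and m378. Tissue was collected 4 months after NNK from mouse m335, 6 months after it from mouse m368 and 7 months after it from the other mice. Gprc5a itself had 0 to 19 counts per library. Ages are not in the labels, and no mouse without NNK or with an intact Gprc5a was analysed here. Values of each gene are listed below in this order of mice.

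Lung fibroblasts build the matrix between airspace and capillary and send growth signals such as FGF10 to the epithelium. Smooth muscle cells ring the airways and vessels and contract through actin and myosin, whose genes are switched on by serum response factor (SRF) and its partner myocardin at DNA elements called CArG boxes. Pericytes wrap the capillaries and are held there by PDGF-B, which endothelial cells release and the receptor Pdgfrb reads. Hedgehog ligands from the epithelium act on fibroblasts and smooth muscle through Gli1, and Hhip binds and blocks those ligands.

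Total counts ranged from 19938822 to 46987587 per library, and the 32 genes together took 0.111% to 0.230% of the counts in tumors and 0.420% to 0.573% in normal lungs. Levels are CPM on library sizes scaled by the TMM method. A gene passed the test, or was called, at an adjusted p under 0.05 by edgeR's quasi-likelihood test, in a model that blocks on the mouse. Fold changes are log2 estimates with their standard error (SE). All 32 genes passed the filter on low counts, the scarcest with 14 counts in 1 library. Some libraries stood apart on markers of other cells. The ADC tumor of mouse m335 had a summed epithelial marker level of 18606 CPM, against 65979 to 90424 CPM in the other tumors and 26593 to 40675 CPM in normal lungs, and its immune marker sum of 846 CPM was the highest of all. The epithelial list includes the surfactant genes Sftpc and Sftpb, and a sum follows the most abundant genes of its list. The normal lung of mouse m335 held 756 CPM of skeletal muscle markers, against 11.0 to 139 CPM in the other normal lungs, and that of mouse m368 held 661 CPM of adipocyte markers. Their part in the results was not tested beyond leaving each library out.

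Over all tumors, 19 of the 32 stromal genes fell relative to normal lung by edgeR and none rose. Of those estimated higher, 1 gene, Rgs5, had an unadjusted p under 0.05 and was called by the Wald test of DESeq2. Among all 15175 genes tested, 7.91% were called lower and 3.68% higher (11.6% in either direction). The median estimate of the 32 was -1.38 on the log2 scale, beside -0.03 over all genes tested. The CPM of the 6 tumors lay wholly below those of the 5 normal lungs for 15 of the 32 genes, where 7.91% of all genes did so. Of the fibroblast genes 13 of 16 fell (median -1.66). Of the smooth muscle genes 4 of 10 were called (median -1.45), and of the pericyte genes 2 of 6 (median -0.97). At an unadjusted p under 0.05 in edgeR, 15 fibroblast, 9 smooth muscle and 4 pericyte genes were lower. Of all 15175 genes tested, 4002 were under it in either direction. The Wald test of DESeq2 called 15, 9 and 4 of these groups lower, and its calls over all genes are given in the last section. These are bulk samples, in which fewer stromal cells and less RNA per stromal cell cannot be told apart.

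**Figure D1:**
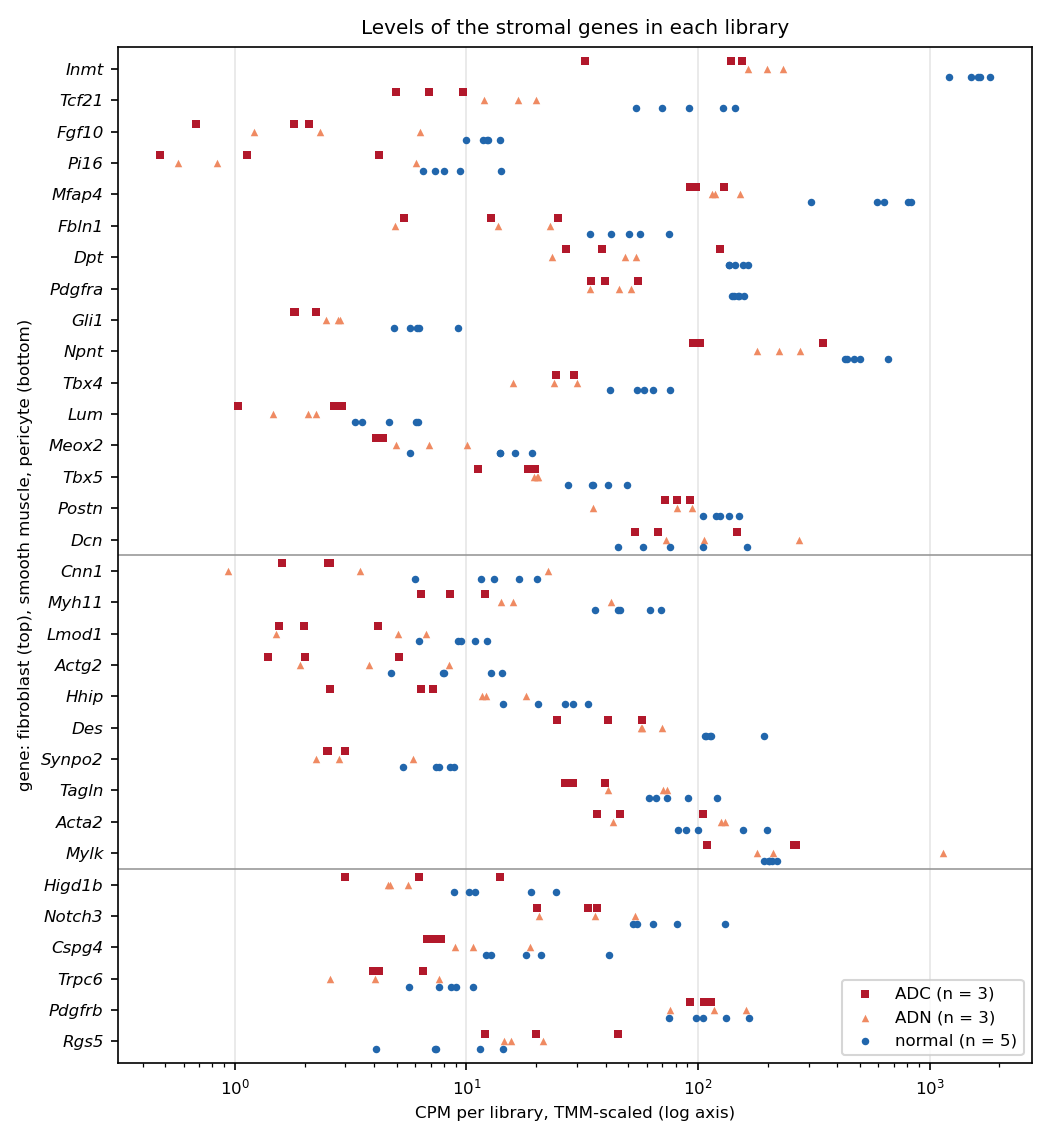
CPM of each stromal gene in every library on a log axis (squares ADC tumors, triangles ADN tumors, circles normal lungs), with fibroblast genes at the top, then smooth muscle, then pericyte genes, each ordered by log2 fold change. The normal lungs lie wholly to the right of the tumors for 15 genes, 14 of them fibroblast genes, while Dcn, Mylk, Pdgfrb and Rgs5 overlap or lie the other way.

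With 1 library left out, 10 stromal genes were called lower without the normal lung of mouse m335 and 11 without either library of mouse m378, against 19 with all libraries. With each of the other libraries left out the number was 13 to 21, 21 being the number when the ADC tumor of mouse m335 was dropped. The estimate stayed below 0 for each called gene in all 16 fits without a library or a mouse. These are not 16 separate checks. Mice m368, m350, m372 and m378 gave a single tumor each. With the mouse block, a tumor or normal lung without its partner adds nothing to the comparison. For these mice the fits without the tumor, its normal lung or the mouse are therefore nearly the same. Counts of fits given below include such repeats. Pdgfra, Tcf21, Mfap4, Inmt, Dpt, Fgf10, Tbx4, Tbx5 and Des were called in every one of the 22 alternative fits.

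Inmt and Tcf21 showed the largest falls. Inmt, an indole methyltransferase that marks alveolar fibroblasts in mice (chr6:55170627-55174990, GRCm38), had 32.6, 138 and 154 CPM in ADC tumors, 164, 232 and 198 CPM in ADN tumors and 1831, 1216, 1624, 1509.8 and 1653 CPM in normal lungs. The groups were far apart, and the ADC tumor of mouse m335 was the lowest of all. Inmt changed by -3.38 ± 0.44 (adjusted p = 0.00199), or 10.4-fold lower in tumors. Per length it was the most abundant of the 32 in both tissues, at 142 CPM per kb in tumors and 1455 CPM per kb in normal lungs.

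Tcf21, a transcription factor that sets the identity of lung mesenchyme and of lipid-storing fibroblasts (chr10:22817275-22820128), had 4.97, 9.64 and 6.87 CPM in ADC tumors, 11.9, 16.7 and 19.99 CPM in ADN tumors and 128, 54.04, 91.3, 70.1 and 144 CPM in normal lungs. Every tumor was below every normal lung, and the 3 ADC tumors were below the 3 ADN tumors. Its change in tumors was -3.09 ± 0.43 (adjusted p = 0.00272). Tbx4 and Tbx5, T-box factors that pattern the lung bud mesenchyme, had smaller estimates, of -1.32 ± 0.17 (adjusted p = 0.00178) and -1.08 ± 0.19 (adjusted p = 0.0077). Tbx4 averaged 24.6 ± 5.09 CPM in tumors and 58.8 ± 12.5 CPM in normal lungs, and Tbx5 18.2 ± 3.52 CPM in tumors and 37.5 ± 8.09 CPM in normal lungs (SD, n = 6 and 5). Meox2, a homeobox gene of fibroblasts, changed by -1.17 ± 0.31 (adjusted p = 0.0453); the normal lung of mouse m335, at 5.7 CPM, lay within the range of the tumors. Without 1 of the normal lungs of mice m368, m350, m372 and m378, the ADN tumors of mice m335 and m350 or the ADC tumors of mice m372 and m378, Meox2 was not called (adjusted p from 0.0510 to 0.169).

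Among receptors and signals, Pdgfra, the PDGF receptor of alveolar fibroblasts and myofibroblasts (chr5:75152291-75198204), had 39.7, 54.9 and 34.6 CPM in ADC tumors, 51.3, 45.5 and 34.2 CPM in ADN tumors and 158, 144, 148, 139.7 and 150.1 CPM in normal lungs. Tumors and normal lungs each sat in a narrow range, well apart from each other. Its change was -1.81 ± 0.18 (adjusted p = 0.000823), or 3.5-fold lower. Fgf10, a growth factor that fibroblasts send to the epithelium (chr13:118714699-118792573), had 0.676, 1.8 and 2.09 CPM in ADC tumors, 1.2, 6.28 and 2.32 CPM in ADN tumors and 11.8, 9.98, 12.4, 12.3 and 13.96 CPM in normal lungs. All tumors were below all normal lungs, and the ADN tumor of mouse m368 was the highest tumor. Fgf10 fell by 2.57 ± 0.43 (adjusted p = 0.00608) on the log2 scale. Gli1, a transcription factor that is itself switched on by hedgehog signaling, averaged 2.33 ± 0.458 CPM in tumors and 6.41 ± 1.63 CPM in normal lungs and changed by -1.51 ± 0.30 (adjusted p = 0.013). Its groups did not overlap. Gli1 exons overlap those of Arhgap9 on the opposite strand, and the strand setting is not given in the sources used here. The Gli1 call was lost without the normal lungs of mice m335, m372 or m378 or the ADC tumor of mouse m378 (adjusted p from 0.0530 to 0.0743).

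Of the matrix genes, Mfap4, Dpt, Fbln1, Pi16 and Npnt fell, and Lum, Postn and Dcn did not pass the test. Mfap4, a microfibril glycoprotein of elastic fibers (chr11:61485444-61488704), had 129.9, 92.01 and 97.9 CPM in ADC tumors, 114, 118 and 152 CPM in ADN tumors and 829.6, 593, 804, 308 and 638 CPM in normal lungs. Every tumor was below every normal lung, with little spread among tumors. Mfap4 changed by -2.42 ± 0.20 (adjusted p = 0.000564), the smallest p of the 32. Its exons overlap those of Mapk7 on the opposite strand, and the strand setting is not given in the sources used here. Dpt (dermatopontin, a collagen-binding matrix protein) had 124, 27.03 and 38.7 CPM in ADC tumors, 53.98, 23.3 and 48.3 CPM in ADN tumors and 164, 145, 137, 136 and 156 CPM in normal lungs. The ADC tumor of mouse m335 was close to the normal lungs and the other 5 tumors were far below them. Dpt changed by -1.83 ± 0.33 (adjusted p = 0.00835). Fbln1, the matrix glycoprotein fibulin 1, fell by 2.05 ± 0.39 (adjusted p = 0.0112), and Pi16, a peptidase inhibitor gene of adventitial fibroblasts, by 2.52 ± 0.49 (adjusted p = 0.0116), both on the log2 scale. Without the normal lung of mouse m335 neither passed the test, Fbln1 at -1.70 (adjusted p = 0.058) and Pi16 at -2.09 (adjusted p = 0.0596).

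Npnt (nephronectin, a basement membrane ligand of integrin alpha 8 beta 1) averaged 204 ± 98.7 CPM in tumors and 501 ± 93.1 CPM in normal lungs. The groups did not overlap, and its change was -1.42 ± 0.35 (adjusted p = 0.0312). That call was lost in 12 of the 16 fits that left out a library or a mouse (adjusted p from 0.0516 to 0.132 in those 12), among them those without the normal lungs of mice m335, m368, m350 or m378, the ADN tumors of mice m335, m368 or m350, or the ADC tumor of mouse m378. Lum (lumican) and Postn (periostin), both binding partners of collagen fibers, were lower in all 6 tumors than in all 5 normal lungs yet were not called, at -1.25 ± 0.40 (adjusted p = 0.0802) and -0.84 ± 0.24 (adjusted p = 0.0529). With the tumor tagged ADC of mouse m335 left out both passed, Lum at -1.27 (adjusted p = 0.049) and Postn at -0.81 (adjusted p = 0.0338). Dcn (decorin, a small collagen-binding proteoglycan) had 147, 67.4 and 53.5 CPM in ADC tumors, 106, 273 and 72.9 CPM in ADN tumors and 75.9, 105, 45.1, 163 and 57.8 CPM in normal lungs. Its groups overlapped, with the ADN tumor of mouse m368 highest, and its estimate was 0.33 ± 0.35 (adjusted p = 0.621). Per length Dcn averaged 68.2 CPM per kb in tumors, level with Mfap4 and next after Inmt, and 50.8 CPM per kb in normal lungs.

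**Figure D2:**
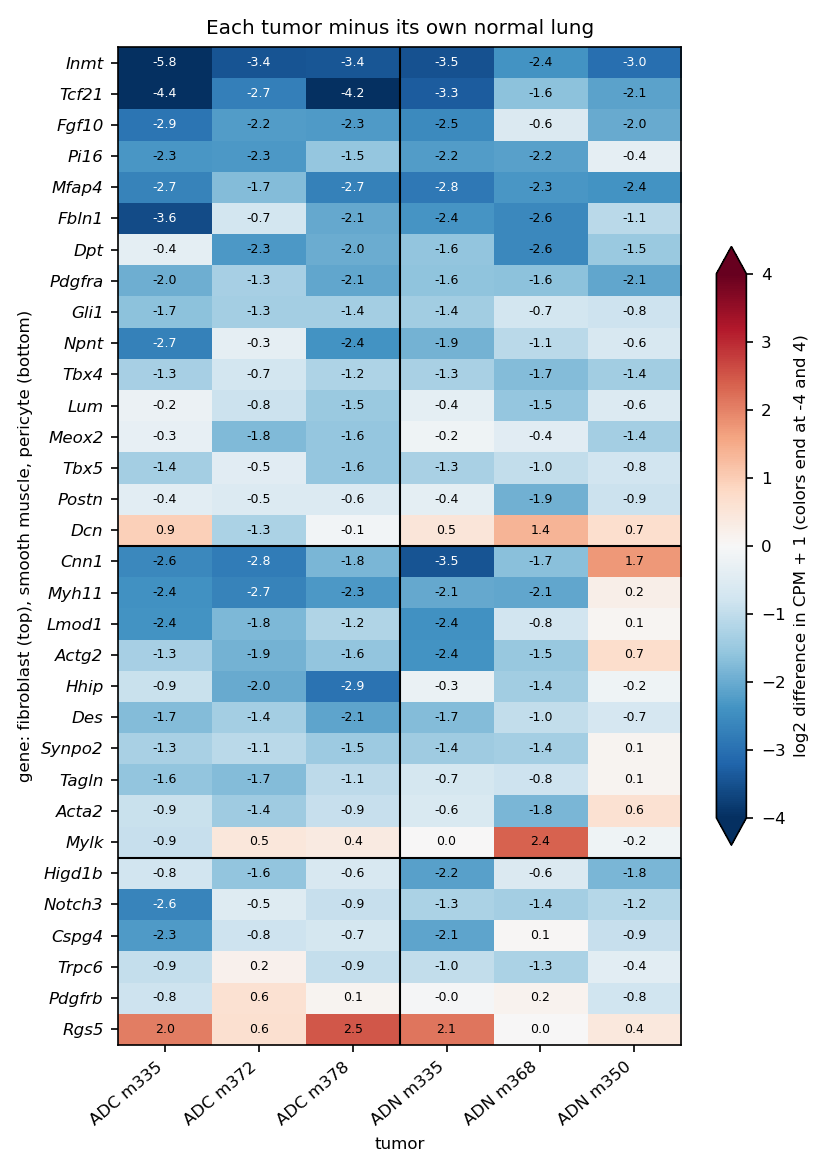
Log2 difference in CPM + 1 between each tumor and the normal lung of its own mouse (red higher, blue lower; colors end at -4 and 4), ADC tumors on the left and ADN tumors on the right, genes in the order of the plot of levels. Inmt is between -5.77 and -2.38 in all 6 tumors, and in the ADN column of mouse m350 most smooth muscle genes are near or above 0.

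Each tumor was also set beside its own normal lung. Against the normal lung of the same mouse, 15 or 16 of the 16 fibroblast genes were lower in every one of the 6 tumors. Of all genes tested, 49.7% to 55.8% were lower in these tumors. Over all 32 genes, at least 2-fold lower levels were found for 20, 20 and 22 in the ADC tumors of mice m335, m372 and m378 (16.1%, 13.3% and 11.5% of all genes tested). In the ADN tumors of mice m335, m368 and m350 they were found for 21, 19 and 11 (13.8%, 15.6% and 12.5% of all genes tested). The ADN tumor of mouse m350 was the highest of the 6 tumors for 11 genes, and the ADC tumor of mouse m372 the lowest for 9. These per-tumor values are descriptions from single libraries and have no test.

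Of the smooth muscle genes, Des, Myh11, Synpo2 and Lmod1 fell. Des (desmin, the intermediate filament protein of muscle, chr1:75360292-75368579) had 57.5, 40.9 and 24.5 CPM in ADC tumors, 57.1, 56.6 and 70.2 CPM in ADN tumors and 193, 114, 113, 107 and 109 CPM in normal lungs. It was the only gene of the 10 whose groups did not overlap, and the normal lung of mouse m335 was far above the other normal lungs. Des changed by -1.42 ± 0.22 (adjusted p = 0.00419). Skeletal muscle also makes desmin, and skeletal muscle markers summed to 3.43 to 9.0 CPM in tumors and 11.0 to 756 CPM in normal lungs, with 8 of 10 tested lower in tumors. Without the normal lung of mouse m335 Des changed by -1.30 (adjusted p = 0.026). In the other normal lungs the skeletal marker sum was 11.0 to 139 CPM, still above that of every tumor. The part of skeletal muscle in the change of Des was not tested.

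Myh11, the myosin heavy chain of smooth muscle (chr16:14194527-14291408), had 12.1, 6.37 and 8.49 CPM in ADC tumors, 15.9, 14.03 and 42.1 CPM in ADN tumors and 69.2, 62.00, 36.04, 46.2 and 45.2 CPM in normal lungs. In the ADN tumor of mouse m350 it was above the normal lung of that mouse, and the other 5 tumors were below all normal lungs. Its change was -1.98 ± 0.40 (adjusted p = 0.0139), and -2.42 (adjusted p = 0.00303) without that ADN tumor. The call was lost without the normal lungs of mice m335, m372 or m378 or the ADC tumors of mice m372 or m378 (adjusted p from 0.0512 to 0.0704). Lmod1 (leiomodin 1, which nucleates actin filaments in smooth muscle) changed by -1.63 ± 0.45 (adjusted p = 0.0484) and Synpo2 (an actin-bundling protein of the Z disc) by -1.30 ± 0.34 (adjusted p = 0.0407). Both were borderline. Of the 16 fits without a library or a mouse, 13 lost Lmod1 (adjusted p up to 0.177) and 12 lost Synpo2 (adjusted p up to 0.157), including the fits without the normal lungs of mice m335, m368, m372 or m378, the ADN tumors of mice m335 or m368 and the ADC tumors of mice m372 or m378. Leaving out the tumor tagged ADC of mouse m335 also ended the Lmod1 call.

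The remaining contractile genes were not called with all libraries in the fit. Cnn1 (calponin 1, an actin-binding protein that restrains contraction) had 2.54, 1.59 and 2.57 CPM in ADC tumors, 0.937, 3.45 and 22.5 CPM in ADN tumors and 20.2, 13.2, 6.0, 16.9 and 11.5 CPM in normal lungs. The ADN tumor of mouse m350 was the highest of all 11 libraries, and the other 5 tumors were below every normal lung. The Cnn1 estimate of -2.23 ± 0.75 (adjusted p = 0.0977) did not pass the test, and without that tumor the change was -2.84 (adjusted p = 0.0106). Acta2 (smooth muscle actin alpha 2, chr19:34240336-34255373) had 105, 36.6 and 46.00 CPM in ADC tumors, 130.4, 43.1 and 126 CPM in ADN tumors and 198, 157, 81.9, 100.3 and 88.8 CPM in normal lungs. The ADN tumors of mice m335 and m350 and the ADC tumor of mouse m335 lay within the range of the normal lungs. Its estimate of -0.88 ± 0.32 (adjusted p = 0.118) did not pass the test. Without the ADN tumor of mouse m350 Acta2 changed by -1.22 (adjusted p = 0.027) and Actg2, the actin gamma 2 of smooth muscle, by -2.06 (adjusted p = 0.0183). The fit without the normal lung of mouse m350 gave the same calls of Cnn1, Acta2 and Actg2, being nearly the same fit under the mouse block. It is no second check, and whether that tumor or that lung carries the difference was not tested. With all libraries the Actg2 estimate was -1.59 ± 0.51 (adjusted p = 0.0799). The coding sequences of the actin genes are similar, so the split of reads between Acta2 and Actg2 may be uncertain, which was not tested.

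The 250 bases before the transcription start were in the RefSeq promoter table (GRCm38.p6) for 22 of the 32 genes. They were searched on both strands for the CArG box, which has an A and T core between CC and GG. Of these 22 genes only Acta2 and Trpc6 held one, exactly or with 1 core base changed, and both are shown to let that match be read in its sequence. Fbln1, Npnt and Postn each had more than 1 window. The smooth muscle genes Myh11, Tagln and Actg2 were not in the promoter table and were not searched. An exact CArG box is in 1.47% of the 32851 promoters of the table and one with at most 1 core base changed in 8.59%. Capitals mark the matches.
Acta2, chr19:34255374-34255623, minus strand: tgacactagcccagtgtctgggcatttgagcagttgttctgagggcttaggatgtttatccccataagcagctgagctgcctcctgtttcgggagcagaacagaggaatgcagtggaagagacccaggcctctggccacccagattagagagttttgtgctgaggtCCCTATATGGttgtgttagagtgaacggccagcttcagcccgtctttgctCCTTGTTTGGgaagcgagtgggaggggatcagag
Trpc6, chr9:8543892-8544141, plus strand: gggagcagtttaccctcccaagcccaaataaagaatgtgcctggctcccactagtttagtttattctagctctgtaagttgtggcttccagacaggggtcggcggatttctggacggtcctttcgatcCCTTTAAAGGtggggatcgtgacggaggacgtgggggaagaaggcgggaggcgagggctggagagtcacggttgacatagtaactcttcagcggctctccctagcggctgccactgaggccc
In Acta2 both matches have 1 core base changed, and their first bases are 84 and 34 bases before the start. In Trpc6 the match is exact and begins 122 bases before the start. The MCAT element CATTCC, read by TEAD factors, was in the promoters of Acta2, Lmod1 and Mylk and in 12.6% of all promoters. The GLI element GACCACCCA was in none of the 22 and in 0.225% of all promoters. A match is a description of these letters, and no match says only that they are not in this window.

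In the ADN tumor of mouse m350, 7 of the 10 smooth muscle genes were above the normal lung of the same mouse and 3 below it (median log2 difference 0.11). Of all genes tested 54.7% were below it. In each of the other 5 tumors 9 or 10 of the 10 were below the normal lung of the same mouse, with medians from -1.77 to -1.38. Of all genes tested, 49.7% to 55.8% were below it in those tumors. Of the 16 fibroblast genes 15 were lower in the ADN tumor of mouse m350, with a median of -1.23. Tagln (transgelin, a calponin-like actin-binding protein) had 39.8, 26.7 and 28.98 CPM in ADC tumors, 73.3, 40.9 and 70.3 CPM in ADN tumors and 120.5, 73.3, 65.6, 90.8 and 61.5 CPM in normal lungs. All ADC tumors and the ADN tumor of mouse m368 were below the normal lungs, and the other 2 ADN tumors lay among them. The Tagln estimate over all tumors was -0.95 ± 0.27 (adjusted p = 0.0563). Tagln passed the test without the ADN tumor or the normal lung of mouse m350, which are nearly the same fit. It also passed without the tumor tagged ADC of mouse m335, and adjusted p ran from 0.0335 to 0.0476 over these fits. Tagln exons overlap those of Pcsk7 on the opposite strand.

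**Figure D3:**
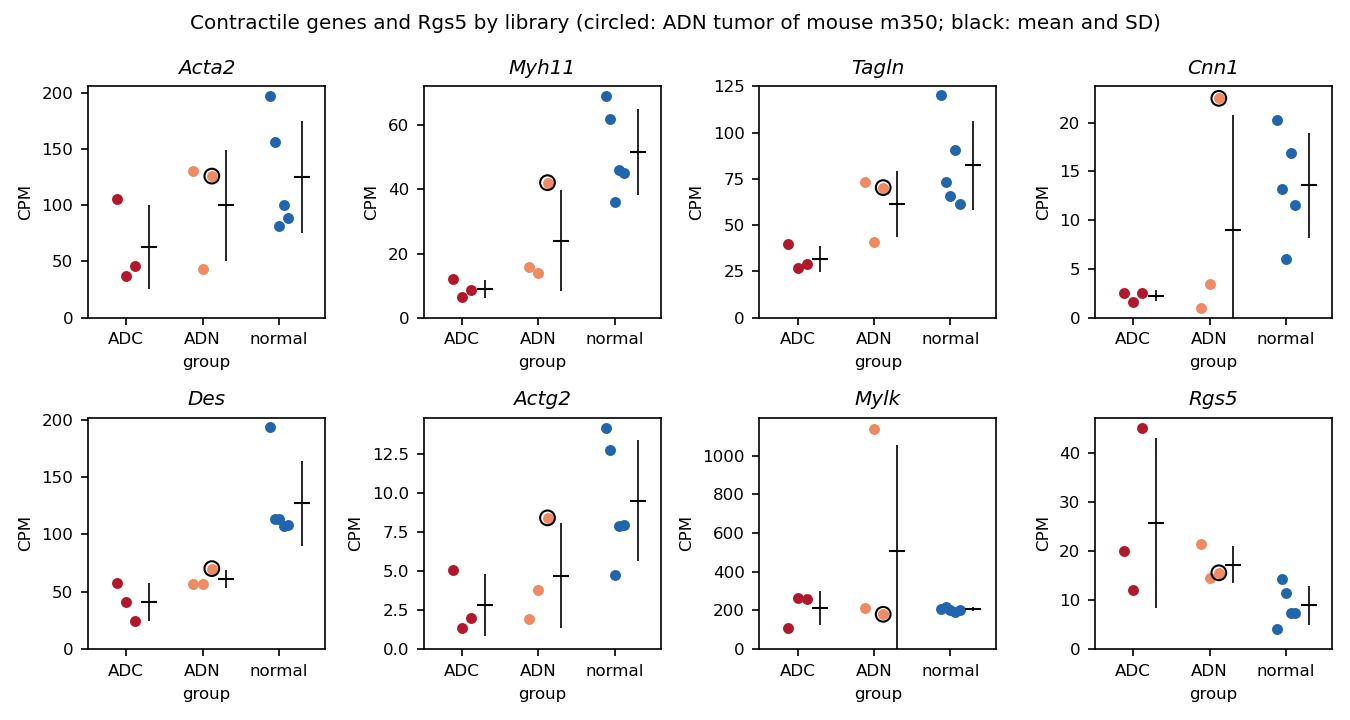
CPM of 6 contractile genes, Mylk and Rgs5 in each library, with ADC tumors left, ADN tumors in the middle and normal lungs right; black marks are group means and bars SD (n = 3, 3 and 5), bars that would pass below 0 end at the axis, and a ring marks the ADN tumor of mouse m350. The ringed tumor is at 22.5 CPM for Cnn1 and 42.1 CPM for Myh11, above the other 5 tumors for both.

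Mylk, the kinase that phosphorylates myosin light chain and so starts contraction, had 109, 264 and 260.4 CPM in ADC tumors, 209.9, 1138 and 179.9 CPM in ADN tumors and 209, 220.0, 202, 193 and 203 CPM in normal lungs. The normal lungs were nearly equal, and the ADN tumor of mouse m368 was several times above every other library. The Mylk estimate was 0.41 ± 0.39 (adjusted p = 0.565) with this tumor and 0.02 (adjusted p = 0.968) without it. The gene also encodes a long form made outside muscle, and only 1 transcript was listed for it. Hhip, the hedgehog-binding protein found in airway smooth muscle, averaged 9.67 ± 5.45 CPM in tumors and 24.7 ± 7.49 CPM in normal lungs and was below its own normal lung in all 6 tumors, but did not pass the test at -1.48 ± 0.45 (adjusted p = 0.0683).

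The 6 listed pericyte genes had the smallest median difference of the 3 groups, at -0.97. This did not extend to the 13 further pericyte genes described below. Their median was -1.48, near the -1.45 of the smooth muscle genes, and 9 of them fell. Notch3, the Notch receptor of mural cells, had 20.3, 36.7 and 33.6 CPM in ADC tumors, 53.6, 20.5 and 35.99 CPM in ADN tumors and 130.2, 54.4, 81.2, 52.4 and 64.1 CPM in normal lungs. The groups overlapped at 1 ADN tumor, and the normal lung of mouse m335 was far above the rest. Notch3 changed by -1.22 ± 0.28 (adjusted p = 0.0259). Without that lung the estimate was -1.01 (adjusted p = 0.111), and the call was also lost without the normal lungs of mice m368, m350 or m378, the ADN tumors of mice m368 or m350 or the ADC tumor of mouse m378. Higd1b, a hypoxia-induced domain protein enriched in lung pericytes, averaged 6.33 ± 3.87 CPM in tumors and 14.7 ± 6.76 CPM in normal lungs and changed by -1.34 ± 0.35 (adjusted p = 0.0394). It lost its call in 13 of the 16 fits without a library or a mouse (adjusted p up to 0.128), with every normal lung left out in turn among them, and also without the ADN tumors of mice m368 or m350 or the ADC tumors of mice m372 or m378. Cspg4 (the NG2 proteoglycan) and Trpc6 (a calcium-permeable channel) were lower in 5 of 6 tumors than in the normal lung of the same mouse, with estimates of -1.10 ± 0.32 (adjusted p = 0.0595) and -0.85 ± 0.30 (adjusted p = 0.107). Cspg4 passed without the ADN tumor of mouse m368, at -1.35 (adjusted p = 0.033), and in the nearly identical fit without the normal lung of that mouse.

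Pdgfrb, the PDGF receptor that holds pericytes to vessels, had 92.5, 114 and 106 CPM in ADC tumors, 160.4, 117 and 75.3 CPM in ADN tumors and 165, 106, 132, 74.8 and 97.99 CPM in normal lungs. The groups overlapped throughout, and 3 of 6 tumors were below their own normal lung. Its estimate was -0.09 ± 0.24 (adjusted p = 0.863), with a sign that turned in some fits without 1 library (0.02 to 0.07 in those). Rgs5, a G protein regulator that marks pericytes, had 20.02, 12.02 and 45.1 CPM in ADC tumors, 21.5, 14.6 and 15.5 CPM in ADN tumors and 4.08, 14.4, 11.4, 7.4 and 7.28 CPM in normal lungs. It was the only one of the 32 above its own normal lung in all 6 tumors. The Rgs5 estimate of 1.26 ± 0.42 (adjusted p = 0.0961) did not pass the test. It passed with the Wald test of DESeq2, at 1.28 (adjusted p = 0.00908), and without the mouse block, at 1.27 (adjusted p = 0.0471).

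The tumor tags were compared with normal lung separately. In ADC tumors 11 of the 32 genes fell and none rose, beside 3.98% lower and 1.01% higher among all genes tested (4.99% in either direction). These were Tcf21, Inmt, Mfap4, Pdgfra, Fgf10, Tbx4 and Gli1 of the fibroblast genes and Des, Tagln, Myh11 and Hhip of the smooth muscle genes. In ADN tumors 7 fell and none rose, beside 4.84% lower and 2.68% higher (7.53% in either direction). They were Mfap4, Pdgfra, Tbx4, Inmt, Tcf21, Dpt and Des. No pericyte gene was called by edgeR with either tag. In ADC tumors 3 pericyte genes were lower and 1 higher at an unadjusted p under 0.05 (1 lower and 1 higher called by the Wald test of DESeq2), and in ADN tumors 3 were lower (2 called by that test). The comparisons share the normal lungs, so they are not independent.

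The ADC changes were -4.17 ± 0.53 (adjusted p = 0.00719) for Inmt, -3.87 ± 0.45 (adjusted p = 0.00682) for Tcf21 and -3.08 ± 0.55 (adjusted p = 0.0197) for Fgf10. The ADN values were -2.78 ± 0.48 (adjusted p = 0.0154) for Inmt, -2.38 ± 0.42 (adjusted p = 0.0176) for Tcf21 and -2.05 ± 0.55 (adjusted p = 0.0629) for Fgf10. For Myh11 the values were -2.46 ± 0.46 (adjusted p = 0.0225) in ADC and -1.43 ± 0.48 (adjusted p = 0.113) in ADN tumors, and for Tagln -1.45 ± 0.26 (adjusted p = 0.0197) in ADC and -0.48 ± 0.25 (adjusted p = 0.30) in ADN tumors. Hhip gave -2.13 ± 0.46 (adjusted p = 0.0396) in ADC and -0.88 ± 0.45 (adjusted p = 0.282) in ADN tumors. Inmt and Tcf21 stayed called in ADC tumors in all 22 alternative fits. The ADC calls of Tagln and Myh11 were lost in 8 each (adjusted p up to 0.107 and 0.112). Those of Fgf10 and Des were lost in 6 each (up to 0.0988 and 0.121). Those of Pdgfra and Mfap4 were lost in 3 each (up to 0.0754 and 0.0615). In ADC tumors the Gli1 call was lost in 17 of those fits (adjusted p up to 0.261), among them all 16 without a library or a mouse, and the Hhip and Tbx4 calls in 13 each (up to 0.175 for Hhip and 0.178 for Tbx4). In ADN tumors the Des call was lost in 17 of 22 (adjusted p up to 0.283), 15 of them without a library or a mouse. The ADN call of Tcf21 was lost in 8 (up to 0.149) and those of Inmt and Dpt in 7 each (up to 0.142 and 0.174). Those of Pdgfra and Tbx4 were lost in 4 each (up to 0.093 and 0.096) and that of Mfap4 in 1 (0.0865). The number of ADC calls depended on single libraries: 2 genes were called without either library of mouse m378, 6 without either library of mouse m372 and 7 without the normal lung of mouse m335. These counts include genes gained in a fit. Of the 6 without a library of mouse m372, 4 were among the 11 called with all libraries. In ADN tumors no gene was called without the ADN tumor of mouse m335, 2 without either library of mouse m350, 4 without either library of mouse m368 and 12 without the ADC tumor of mouse m335. Without a library of mouse m350, Mfap4 was the only gene still called of the 7 called with all libraries.

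**Figure D4:**
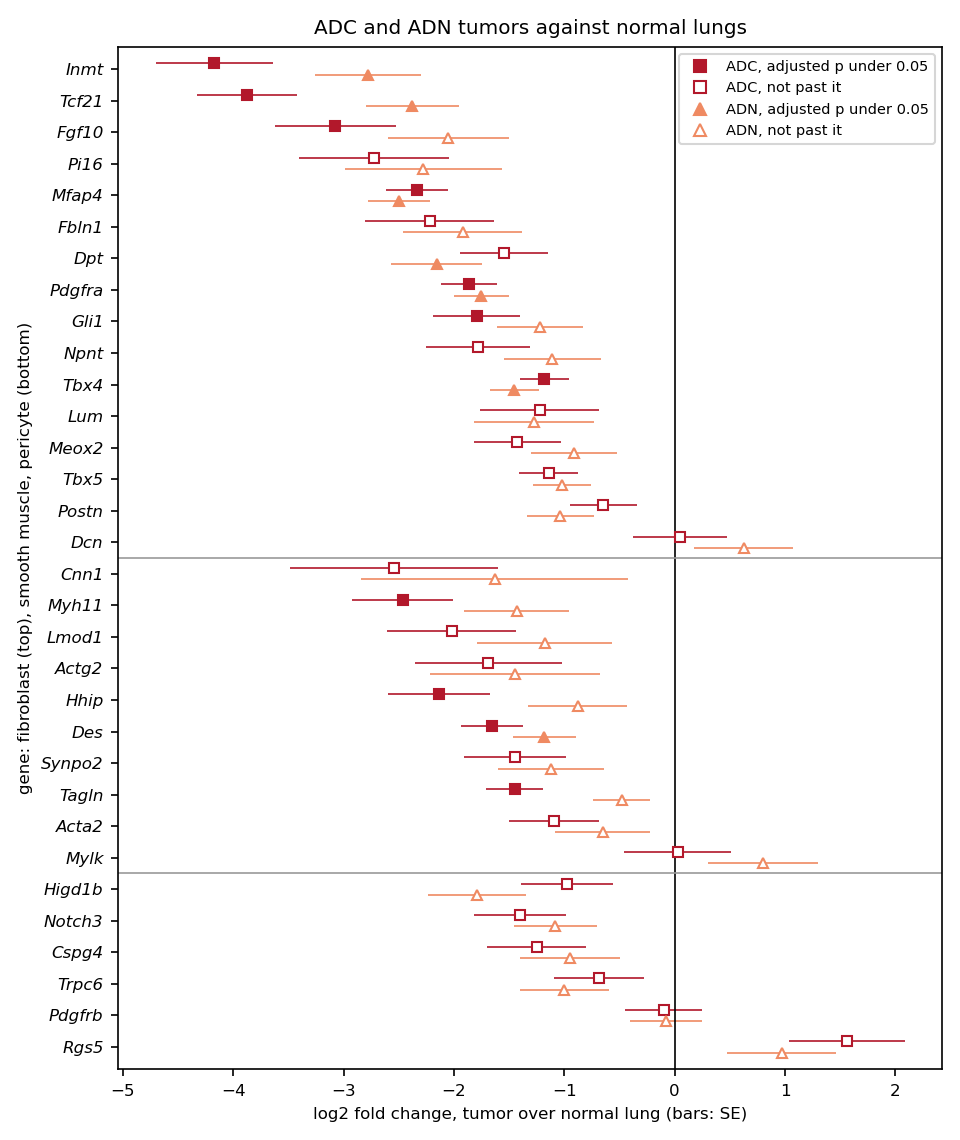
Log2 fold change over normal lung of each stromal gene in ADC tumors (squares) and ADN tumors (triangles), with bars for SE and filled symbols for an adjusted p under 0.05. ADC symbols lie left of ADN symbols for Tcf21, Inmt, Hhip and Fgf10, and the test of ADC against ADN called none of the 32 genes.

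In the direct test of ADC against ADN tumors edgeR called none of the 32 genes, of which 3 had an unadjusted p under 0.05, all lower in ADC tumors. Of all genes tested, edgeR called 0%, with 992 at an unadjusted p under 0.05, and the Wald test of DESeq2 called 125, none of them among the 32. The estimates were below 0 for 24 of the 32, including all 10 smooth muscle genes (median -0.81), 11 of 16 fibroblast genes and 3 of 6 pericyte genes, beside a median of 0.04 over all genes tested. Against the own normal lung, the smooth muscle median was 0.11 in the ADN tumor of mouse m350. It was -1.58 and -1.38 in the ADN tumors of mice m335 and m368. In the ADC tumors of mice m335, m372 and m378 it was -1.44, -1.77 and -1.51. Within mouse m335 the ADC median was thus not below the ADN median. The lowest estimates were -1.5 ± 0.54 (adjusted p = 0.744) for Tcf21, -1.39 ± 0.62 (adjusted p = 0.761) for Inmt and -1.25 ± 0.53 (adjusted p = 0.76) for Hhip. Myh11 followed at -1.03 ± 0.57 (adjusted p = 0.795), Fgf10 at -1.02 ± 0.69 (adjusted p = 0.807) and Tagln at -0.97 ± 0.32 (adjusted p = 0.744). Only mouse m335 gave tumors of both tags, so most of this comparison runs between mice, and tag and time after NNK are partly confounded. Immune markers also differed in level by tag, with sums of 216 to 846 CPM in ADC tumors and 130.1 to 315 CPM in ADN tumors. All 8 immune markers were estimated higher in ADC than in ADN tumors (median 1.77), 3 of them at an unadjusted p under 0.05, and edgeR called none. Against normal lungs 2 were higher in ADC tumors and 6 lower in ADN tumors at an unadjusted p under 0.05, again with none called. Their part in the tag comparisons was not tested.

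Other genes of the same cells and pathways were read beside the 32. Of 21 further lung fibroblast genes tested, 12 fell and 1 rose, the basement membrane collagen Col15a1 (1.5 ± 0.23, adjusted p = 0.00374). Among those that fell were Lrat, the retinol-esterifying enzyme of lipid-storing fibroblasts (-2.74 ± 0.19, adjusted p = 0.000318), Ogn, a small proteoglycan (-3.36 ± 0.35, adjusted p = 0.000936), Col13a1, a membrane collagen (-3.23 ± 0.36, adjusted p = 0.00106) and Clec3b (-2.69 ± 0.33, adjusted p = 0.00151). Of 16 tested genes linked to tumor fibroblasts, 2 fell, Lox and Col12a1, and the median of the list was -0.29. Lox, which cross-links collagen, changed by -1.20 ± 0.23 (adjusted p = 0.0111) and Col12a1 by -1.52 ± 0.34 (adjusted p = 0.0211). Fap, Col11a1 and Lrrc15 were too low to test. Of 13 further pericyte genes tested, 9 fell, among them Cox4i2, a cytochrome oxidase subunit of lung pericytes (-1.99 ± 0.20, adjusted p = 0.000899), the guanylate cyclase subunits Gucy1b3 (-1.85 ± 0.19, adjusted p = 0.000925) and Gucy1a3 (-1.55 ± 0.19, adjusted p = 0.00154) and Angpt1, a ligand of the endothelial receptor Tek (-2.13 ± 0.26, adjusted p = 0.00139).

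In the hedgehog pathway 4 of 14 genes fell. They were the co-receptors Boc (-1.89 ± 0.23, adjusted p = 0.0014) and Gas1 (-2.36 ± 0.35, adjusted p = 0.00361), the receptor and target Ptch1 (-0.62 ± 0.14, adjusted p = 0.0236) and the ligand Dhh (-1.97 ± 0.45, adjusted p = 0.0246). The epithelial ligand Shh was not called, at 0.49 ± 0.26 (adjusted p = 0.271), nor was the transcription factor Gli2, at -1.79 ± 0.49 (adjusted p = 0.0501). Among PDGF ligands 2 of 4 fell, Pdgfb (-1.32 ± 0.19, adjusted p = 0.00313) and Pdgfd (-2.02 ± 0.49, adjusted p = 0.0299). Pdgfa, the main ligand of Pdgfra, had 30.2, 22.4 and 13.5 CPM in ADC tumors, 19.8, 222 and 24.6 CPM in ADN tumors and 79.9, 37.2, 33.7, 37.5 and 34.9 CPM in normal lungs. The ADN tumor of mouse m368 was far above the other libraries, and the Pdgfa estimate was -0.59 ± 0.54 (adjusted p = 0.546). Around Fgf10, the related fibroblast growth factor Fgf7 fell (-2.67 ± 0.40, adjusted p = 0.00348), as did the receptor Fgfr1 (-0.81 ± 0.19, adjusted p = 0.0271). Etv4, a transcription factor induced by FGF and MAPK signaling, rose (5.09 ± 0.50, adjusted p = 0.000823), as did the feedback inhibitor Spry2 (1.40 ± 0.34, adjusted p = 0.0295). Fgfr2, the epithelial receptor of FGF10, was not called at 0.92 ± 0.39 (adjusted p = 0.177).

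Of 10 tested regulators of the contractile program, 4 fell. They were Foxf1 (-3.06 ± 0.28, adjusted p = 0.000701) and Foxf2 (-1.61 ± 0.18, adjusted p = 0.00105), forkhead factors of lung mesenchyme, and the T-box factors Tbx2 (-2.23 ± 0.22, adjusted p = 0.000823) and Tbx3 (-2.36 ± 0.35, adjusted p = 0.00351). Foxf1 is also made by lung endothelium. Srf and Myocd, which encode SRF and myocardin, were not called, at -0.17 ± 0.25 (adjusted p = 0.729) and 0.48 ± 0.81 (adjusted p = 0.767). Of 23 contractile partners, 9 fell and 1 rose, the tropomyosin Tpm1 (0.91 ± 0.17, adjusted p = 0.0112). Among those that fell were Itga8, an integrin subunit of myofibroblasts that binds nephronectin (-3.12 ± 0.34, adjusted p = 0.00105), Ppp1r14a, an inhibitor of myosin phosphatase (-2.68 ± 0.38, adjusted p = 0.0030), and Cnn3 (-1.15 ± 0.17, adjusted p = 0.00345). Of 8 Notch partners, 3 fell, the target Hey1 (-1.85 ± 0.19, adjusted p = 0.000913) and the ligands Dll1 (-1.70 ± 0.22, adjusted p = 0.00182) and Dll4 (-1.94 ± 0.28, adjusted p = 0.00298).

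**Figure D5:**
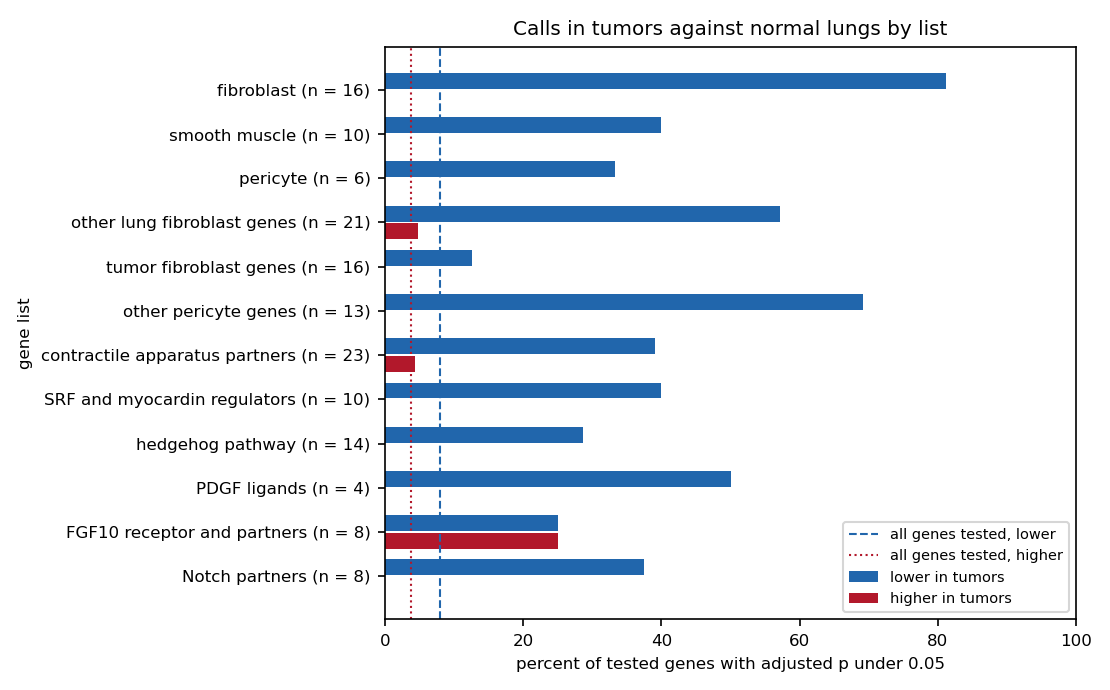
Percent of the tested genes with an adjusted p under 0.05 in tumors against normal lungs for each list of stromal and pathway genes (blue lower, red higher in tumors; markers of other cells are not drawn), with vertical lines at the shares among all genes tested, 7.91% lower (dashed) and 3.68% higher (dotted). The blue bar of the fibroblast genes stands for 13 of 16 and that of the tumor fibroblast genes for 2 of 16.

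Markers of other cells moved in the same comparison. Of 12 endothelial markers 10 fell, and their summed level was 638 to 1154 CPM in tumors and 3160.1 to 5192 CPM in normal lungs. Of 7 mesothelial markers 6 fell, and the other, Krt19, which epithelium also makes, was not called, at 0.65 ± 0.31 (adjusted p = 0.226). The mesothelial sum, which includes Krt19, was 190.3 to 709 CPM in tumors, highest in the ADN tumor of mouse m368, and 292 to 586 CPM in normal lungs. Of 11 epithelial markers 7 rose, and their sum was 18606 to 90424 CPM in tumors and 26593 to 40675 CPM in normal lungs. No immune marker of 8 was called by edgeR (1 lower and 0 higher at an unadjusted p under 0.05), and the sums were 130.1 to 846 CPM in tumors and 267 to 780.2 CPM in normal lungs. Of 6 adipocyte markers tested 2 fell, with sums of 7.03 to 24.7 CPM in tumors and 34.0 to 661 CPM in normal lungs. Of 7 cardiac markers tested 1 rose, Myh6 (3.68 ± 0.54, adjusted p = 0.00341), with sums of 8.55 to 758 CPM in tumors, highest in the tumor tagged ADC of mouse m372, and 19.3 to 73.2 CPM in normal lungs. No listed marker was at 0 in all tumors. The part of these shifts in the changes of the 32 genes was not tested.

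Among the 32 genes, 9 had several transcripts, whose shares of the gene's counts were compared by an exact two-sided permutation test (462 arrangements, smallest possible p 0.00216). The arrangements do not keep the tumors and normal lung of a mouse together, and with this many tests a single transcript at the smallest p would not pass. None of the 25 transcripts passed after Benjamini-Hochberg adjustment, and 3 had an unadjusted p under 0.05, all of Npnt. The main Npnt transcript NM_001287103 held 78.5% ± 5.13 of the gene's counts in tumors and 68.2% ± 6.39 in normal lungs (SD, n = 6 and 5; exact permutation p = 0.0195, adjusted p = 0.162). The shorter NM_001287102 held 5.92% ± 1.58 in tumors and 11.8% ± 3.41 in normal lungs, and NM_001287101 held 3.60% ± 1.64 in tumors and 8.26% ± 2.1 in normal lungs (adjusted p = 0.135 for each in the exact permutation test). In the normal lung of mouse m372 the 3 transcripts held 78.7%, 5.81% and 5.46%, which lie within the ranges of the tumors. Without that lung each of the 3 passed (adjusted p = 0.0397 for each in the exact permutation test). With any other library left out none did (adjusted p from 0.198 to 0.397 in that test). Dropping that lung removes the overlap of tumors and normal lungs, so all 3 tied at the smallest p the test can reach. The 3 are linked shares of the same gene's counts, so their passes are not 3 separate results. These shares are estimates, because transcripts of a gene share most of their reads.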

How the data were processed

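Poly-A RNA of 6 lung tumors and 5 normal lungs (RNA integrity number 7 or more) was sequenced on an Ion Proton instrument with the maker's total RNA kit, per the labels' protocols. The authors deposited expected counts of 36285 RefSeq transcripts in 11 libraries, not normalized. STAR 2.4.1d, Bowtie2 2.1.0, Partek and the build mm10 are named per the submitters' processing notes; which tool did what, and whether counting used the strand, is not given in the sources used here.

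Transcripts were summed by symbol to 24515 genes and rounded to whole numbers. The filter filterByExpr by tumor or normal left 15175 genes with 99.94% of the counts. After TMM scaling, the robust two-sided quasi-likelihood test of edgeR 4.0.16 (R 4.3.3) was run with a fixed block for each mouse, because the labels give each tumor and its normal lung the same mouse identifier. Tumors were compared with normal lungs in one fit, and ADC, ADN and their difference in a fit of 3 groups. The Benjamini-Hochberg adjustment covered every gene tested, and the threshold was 0.05. SE was derived from the F statistic. Per-mouse differences used CPM + 1, and levels per kb used GENCODE M21 lengths. The computations were tested on simulated data.

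As a check of the pairing, deviations of each tumor and its own normal lung from their group means correlated with r from -0.0444 to 0.254, and the own lung ranked first for 2 of 6 tumors. The 32 genes and the other lists were chosen with earlier results of these data known. All 32 are described; from the other lists, up to 4 called genes with the smallest p are named, plus the receptor, ligand or regulator of a member and, where a list had a single called gene in one direction, that gene, chosen after its values were seen. A gene that this rule names is not reported here. Alternatives were DESeq2 1.42.0 size factors and its Wald test, library totals, no Rn45s, no filter, no replicate block, each library or mouse left out, and, for transcript shares, a minimum of 100 gene counts in place of 20. Counting error alone limits single counts, and separate tumors of 1 mouse are not independent animals.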

Additional observations from a re-analysis of the deposited data

Results flagged for a closer look

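Each gene's levels in the 6 tumors and in the 5 normal lungs were searched for a library that stood apart, taken as a gap to its nearest neighbor, relative to the whole range, above Dixon's critical value (0.625 for 6 libraries and 0.71 for 5). Of the 64 groups of values 11 held one. For normally distributed values of a single population, chance alone gives about 1 in 20 groups. The CPM were not put on a log scale and the 6 tumors hold both tags, so this share may not apply here. Genes of the same cells are also not independent.

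In the ADN tumor of mouse m350, Cnn1 was at 22.5 CPM, against 0.937 to 3.45 CPM in the other tumors. Myh11 was at 42.1 CPM in that tumor, against 6.37 to 15.9 CPM, and Synpo2 at 5.89 CPM, against 2.24 to 2.98 CPM. In the ADN tumor of mouse m368, Mylk was at 1138 CPM, against 109 to 264 CPM in the other tumors. Fgf10 was at 6.28 CPM there, against 0.676 to 2.32 CPM, and Cspg4 at 18.9 CPM, against 6.78 to 10.7 CPM.

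In the ADC tumor of mouse m335, Dpt was at 124 CPM, against 23.3 to 54.0 CPM in the other tumors, and Higd1b at 13.9 CPM, against 3.0 to 6.24 CPM. In the ADC tumor of mouse m378, Rgs5 was at 45.1 CPM, against 12.0 to 21.5 CPM, and Tbx5 at 11.2 CPM, below 18.4 to 20.3 CPM in the other tumors. In the normal lung of mouse m335, Des was at 193 CPM, against 107 to 114 CPM in the other normal lungs.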

How the results depend on the processing

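The 32 genes gave 19, 7 and 11 lower calls in tumors, ADN tumors and ADC tumors, and these counts were 17, 6 and 11 with DESeq2 size factors or without Rn45s and 18, 8 and 11 without the filter. Library totals moved the median of all genes to -0.22 and gave 23, 12 and 15. The Wald test of DESeq2 gave 28, 16 and 21 and, without the replicate block, edgeR gave 20, 11 and 18; each also called 1 gene, Rgs5, higher in tumors and 1 in ADC tumors. Over all genes the Wald test called 3286, 2931, 1858 and, in ADC against ADN tumors, 125, and the fit without the block called 2242, 1779, 1546 and 3. Without the filter 5 genes were called in ADC against ADN tumors. Without the replicate block Lum, Postn and Hhip were gained and Pi16 and Higd1b lost in tumors against normal lungs. With a library or a mouse left out, 917 to 3377 genes were called in either direction in tumors against normal lungs, 0 to 1972 in ADN tumors and 65 to 1067 in ADC tumors. Of the 32 genes 10 to 21, 0 to 12 and 2 to 11 were called lower in these comparisons. In ADC against ADN tumors 0 to 2 genes were called in those fits. The Pdgfrb estimate ran from -0.245 to 0.0747 over them and was positive in 6, at 0.0194, 0.0733, 0.0747, 0.0533, 0.0615 and 0.0736. The cause of these shifts was not tested. The limits are 6 tumors of 5 mice, 1 mouse with both tags, and low levels of Pi16, Fgf10, Lum, Gli1 and Cnn1.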
